A study of Homo sapiens with 6 samples.

Results

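The lateral plate and cardiac mesoderm factors described here are 10 genes, HAND1, HAND2, FOXF1, NKX2-5, GATA4, GATA5, GATA6, ISL1, MEF2C and ZFPM2, taken by symbol as a named group and not by a threshold on their values, from the 37803 symbols found once in both expression tables, and all 10 were found. Of these, 7 had a mean of at least 1 FPKM (fragments per kilobase of transcript, scaled to the mapped fragments of the library) over the 6 libraries and were tested, and 3 (ISL1, MEF2C and ZFPM2) lay below that mean.

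Lateral plate mesoderm is the ventral and lateral part of the mesoderm, from which the heart, the limb buds, the body wall and the first blood vessels arise. Among the transcription factors that mark it are the bHLH factors HAND1 and HAND2, the forkhead factor FOXF1, the homeodomain factors NKX2-5 and ISL1, the zinc finger factors GATA4, GATA5 and GATA6 with their cofactor ZFPM2 (FOG2), and the MADS-box factor MEF2C. In the heart field these proteins act together on shared enhancers, and GATA and HAND genes are induced by BMP signals.

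The cells were H1, an established human embryonic stem cell line, taken on day 2 of hematopoietic differentiation in medium with activin A and BMP4, which all groups received. One group was unmodified (WT) and the SNAI1-deleted groups are called SNAI1_KO_1 and SNAI1_KO_2 after their titles, with 2 libraries per group. SNAI1 is a zinc finger repressor of epithelial genes, and the study describes CRISPR/Cas9 knockout lines with frameshifts; which line each number stands for is not stated. The comparison asks how loss of SNAI1 changes gene expression when mesoderm is formed. Each of the 2 tables held 1 library per group and was normalised separately, so WT and knockout were compared within tables. Nothing in the labels says that libraries came from separate cultures, so p-values measure only the spread between these libraries. In bulk RNA, fewer cells that express a gene and less RNA per cell cannot be told apart.

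The libraries had 13553 to 14063 symbols at 1 FPKM or more. The labelled mesoderm stage was checked on MESP1, a factor of early cardiac mesoderm, which stood at 54.7 and 52.3 FPKM in WT, and on KDR, a receptor of mesoderm and endothelium, at 62.9 and 53.8. The pluripotency factor POU5F1 was also present in WT, at 485 and 630 FPKM. SNAI1 RNA itself was not lost. WT libraries had 37.2 and 36.4 FPKM, SNAI1_KO_1 libraries 51.6 and 47.8, and SNAI1_KO_2 libraries 68.6 and 55.0, all 4 knockout libraries above WT (log2 difference 0.58 ± 0.074 SE, adjusted p = 0.00461 by limma, 0.0761 without the table block). A frameshift need not lower the RNA, so this level does not check the knockout.

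RefSeq promoter entries were found for 5 of the 10 genes (HAND1, HAND2, GATA6, ISL1 and MEF2C, the last with 7 starts). The 250 bases before the start are shown for the 4 genes with a single start, all 4 of them lower in each knockout library than in WT of its table, because SNAI1 protein binds E-boxes and the GATA factors bind GATA motifs in DNA. Capitals mark matches, searched on both strands, to the general E-box CANNTG and to a GATA motif, AGATAA. The E-box preferred by SNAI proteins, which is one form of the general one and overlaps it, is CAGGTG. The build is GRCh38.p14, and each sequence runs 5′ to 3′ on the strand of its gene. HAND1 lies at chr5:154478228-154478477 on the minus strand, HAND2 at chr4:173530230-173530479 on the minus strand, GATA6 at chr18:22169339-22169588 on the plus strand and ISL1 at chr5:51383198-51383447 on the plus strand.
HAND1: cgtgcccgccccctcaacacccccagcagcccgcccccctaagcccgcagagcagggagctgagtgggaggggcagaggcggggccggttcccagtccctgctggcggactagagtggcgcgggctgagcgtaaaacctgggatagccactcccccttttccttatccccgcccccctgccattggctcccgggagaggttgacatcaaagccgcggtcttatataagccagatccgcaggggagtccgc
HAND2: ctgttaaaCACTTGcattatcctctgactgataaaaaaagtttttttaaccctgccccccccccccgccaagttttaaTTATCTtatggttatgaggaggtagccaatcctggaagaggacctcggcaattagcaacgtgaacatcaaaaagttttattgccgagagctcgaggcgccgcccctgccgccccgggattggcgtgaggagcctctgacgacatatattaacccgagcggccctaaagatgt
GATA6: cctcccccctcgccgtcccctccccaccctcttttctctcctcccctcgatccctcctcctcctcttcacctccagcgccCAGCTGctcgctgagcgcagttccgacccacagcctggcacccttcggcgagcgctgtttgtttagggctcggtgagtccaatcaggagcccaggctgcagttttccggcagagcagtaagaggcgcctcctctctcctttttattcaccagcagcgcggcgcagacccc
ISL1: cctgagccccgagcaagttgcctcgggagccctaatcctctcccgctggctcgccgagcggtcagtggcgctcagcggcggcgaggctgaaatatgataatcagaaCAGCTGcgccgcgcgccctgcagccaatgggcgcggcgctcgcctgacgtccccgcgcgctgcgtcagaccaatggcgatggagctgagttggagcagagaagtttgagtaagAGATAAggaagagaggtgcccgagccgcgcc

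On either strand none of the 4 windows held CAGGTG, which 17.5% of all 35116 promoter windows of this length hold. Of the 7 MEF2C windows, which are not shown, 1 held it, 3 held CANNTG and 0 held the GATA motif. CANNTG was in the windows of HAND2 (242 bases before the start), GATA6 (170) and ISL1 (144), and in 61.8% of all windows. AGATAA was in the windows of HAND2 (172 bases before the start) and ISL1 (31), and in 9.17% of all windows. Other forms of the GATA motif were not searched and are not marked, such as the TGATAA in the windows of HAND2 and ISL1. HAND1 held none of these letters. A match is a description of the sequence and not a binding site, and a window without one says nothing about binding elsewhere.

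SNAI1-deleted cells had lower levels of most of these factors. In both knockout groups together, 6 of the 7 tested genes were called lower than WT at an adjusted p under 0.05 and 0 were called higher, where 15.4% of all 13909 tested genes were called lower and 31.3% either way. With SNAI1_KO_1 alone 6 of 7 were called lower against 10.9% of all genes, and with SNAI1_KO_2 alone 6 of 7 against 12%; these comparisons share the WT libraries. Without either SNAI1_KO_1 library the first of these counts was 4, with NKX2-5 and GATA6 lost. The median log2 difference of the 7 was -1.42, against -0.05 over all tested genes. These counts and the median include HAND2, which passed the filter on low values only through WT and could be called only lower. With a log2 difference of -1 or below as well, 5 of 7 were called lower, against 1.91% of all genes. Of all 10 genes, 9 were lower in each of the 4 within-table differences and MEF2C was higher in each; among tested genes 35.1% were lower in all 4, as were all 7 tested members.

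**Figure D1:**
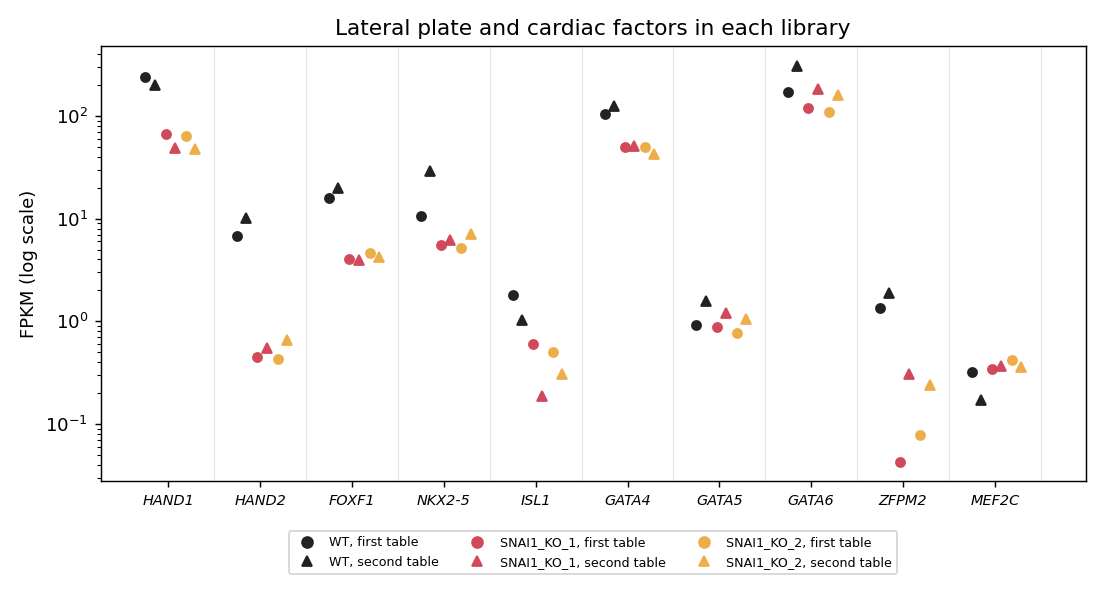
FPKM on a log axis for the 10 genes in the 6 libraries; colours are the groups, circles the first table and triangles the second, 1 point per library. HAND1 falls from 241.5 and 200.9 in WT to between 47.2 and 66.4 in the knockouts, and HAND2 from 6.75 and 10.1 to between 0.432 and 0.655, while MEF2C stays at or below 0.424 everywhere.

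HAND1, needed for lateral mesoderm, heart and extraembryonic mesoderm, was the most abundant of the 10 in WT of the first table, and second to GATA6 in WT of the other. In the first table WT had 241.5 FPKM, against 66.4 for SNAI1_KO_1 and 64.3 for SNAI1_KO_2, and in the second the values were 200.9, 48.5 and 47.2. The groups did not overlap, and the knockout libraries held 23.5% to 27.5% of their own WT. The log2 difference was -1.96 ± 0.059 SE (95% interval -2.11 to -1.81, adjusted p = 0.000143 by limma), and its adjusted p stayed under 0.05 in all 17 alternatives of this comparison, at most 0.0402.

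HAND2, its paralogue, which acts in the right ventricle, limb bud and branchial arches, had 6.75, 0.451 and 0.432 FPKM (WT, SNAI1_KO_1, SNAI1_KO_2) in the first table; the second gave 10.1, 0.545 and 0.655. It was the tested member with the largest log2 difference, at 5.4% to 6.68% of WT, and the groups were far apart. HAND2 passed the filter on low values only through WT, so it could be called only lower. With no filter its adjusted p was 0.0462 by limma. The log2 difference was -2.61 ± 0.15 SE (95% interval -2.99 to -2.23, adjusted p = 0.000426 by limma). With a pseudocount of 0.1 it was -3.77 and with a pseudocount of 10 it was -0.80, as its knockout levels lie below 1 FPKM.

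FOXF1, a factor of splanchnic lateral plate and its mesenchyme, had 15.7, 4.08 and 4.67 FPKM in the first table, then 19.7, 3.96 and 4.21 in the second. All 4 knockout libraries lay close together, at 20.1% to 29.7% of WT, and did not overlap with WT. The log2 difference was -1.83 ± 0.12 SE (95% interval -2.14 to -1.53, adjusted p = 0.000634 by limma), and 0.055 in the planned fit with no filter on low values.

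NKX2-5, the early heart field homeodomain factor, had 10.6, 5.51 and 5.22 FPKM in the first table, then 28.9, 6.14 and 7.13 in the second. Its WT libraries differed more than its knockout libraries did, so the knockouts held 49.3% to 52.1% of WT in the first table and 21.2% to 24.6% in the second. The log2 difference was -1.42 ± 0.26 SE (95% interval -2.07 to -0.77, adjusted p = 0.013 by limma). This was the least firm of the 6 calls: the adjusted p was 0.101 without the table block, 0.0586 without the SNAI1_KO_2 library of the second table, and 0.0539 to 0.209 in the 3 fits with weaker filters.

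ISL1, a LIM homeodomain factor of the second heart field, was low everywhere and was not tested. It had 1.82, 0.597 and 0.504 FPKM in the first table, then 1.04, 0.187 and 0.308 in the second. Both WT libraries lay above all 4 knockout libraries, which held 18% to 32.9% of WT.

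**Figure D2:**
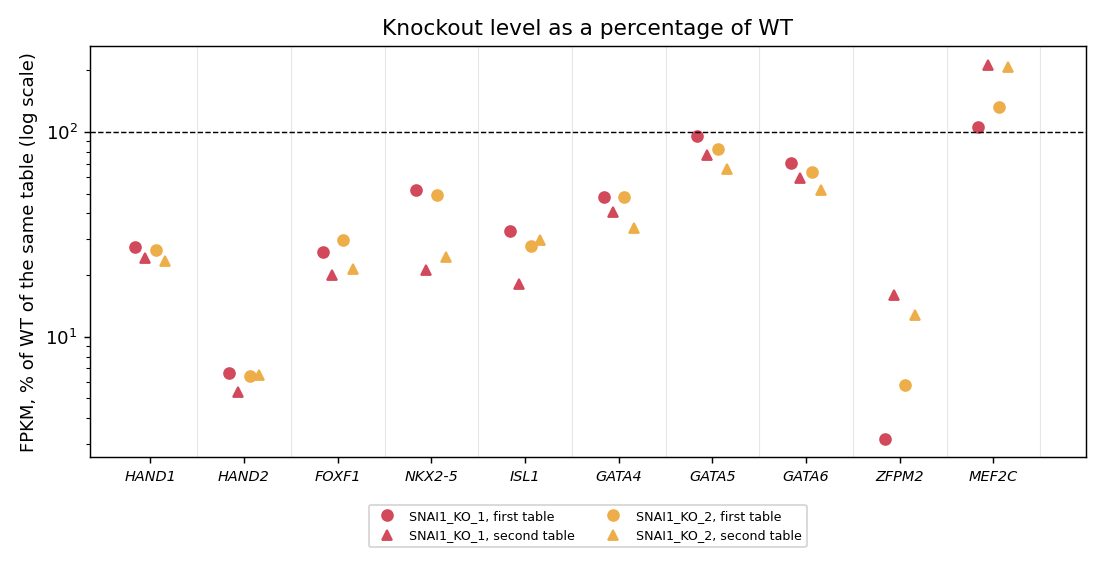
FPKM of each knockout library as a percentage of the WT library of its table, on a log axis, with the dashed line at 100%; red and yellow are the knockout groups, circles the first and triangles the second table. HAND2 and ZFPM2 lie lowest, GATA5 and GATA6 nearest to the line among the lower genes, and MEF2C lies above it at 106% to 213%.

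Of the GATA factors, GATA4, which binds cardiac enhancers together with NKX2-5, had 104.1, 50.0 and 49.9 FPKM in the first table, then 126.1, 51.2 and 42.7 in the second. The knockout libraries lay at 33.8% to 48% of WT and did not overlap with it. The log2 difference was -1.23 ± 0.10 SE (95% interval -1.49 to -0.97, adjusted p = 0.0012 by limma), and 0.0829 with no filter on low values.

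GATA6, which acts in both mesoderm and endoderm, had 171.1, 120.4 and 109.5 FPKM in the first table, then 308.1, 184.0 and 160.1 in the second. The WT level of the first table lay below the SNAI1_KO_1 level of the second, so the groups overlapped across tables and were apart within each, at 52% to 70.4% of WT. The log2 difference was -0.71 ± 0.071 SE (95% interval -0.89 to -0.53, adjusted p = 0.00212 by limma). The call rests on the table block, without which the adjusted p was 0.301, and it was 0.0926 with no filter on low values.

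GATA5, active in the early endocardium and endoderm, had 0.922, 0.881 and 0.763 FPKM in the first table, then 1.58, 1.22 and 1.04 in the second. All knockout libraries were below WT of their table, at 66.1% to 95.5%, and the groups overlapped across tables. The log2 difference of -0.18 ± 0.15 SE did not pass (95% interval -0.55 to 0.20, adjusted p = 0.413 by limma).

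The 3 GATA genes were compared as shares of their summed FPKM, a level per length. The sum fell to 58% to 62% of WT in the first table and to 46.8% to 54.2% in the second. GATA6 made up 62% and 70.7% of the sum in WT, 70.3% and 77.8% in SNAI1_KO_1 and 68.4% and 78.5% in SNAI1_KO_2, and GATA4 made up 37.7% and 28.9%, then 29.2% and 21.7%, then 31.1% and 20.9%. The GATA6 share was thus higher in the knockouts of each table, by 7.43 percentage points on average, with an exact permutation p = 0.111, the smallest that the 9 arrangements of these libraries allow. For the HAND genes, HAND1 made up 97.3% and 95.2% of the sum in WT and 98.6% to 99.3% in the knockouts, with the same exact permutation p = 0.111.

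**Figure D3:**
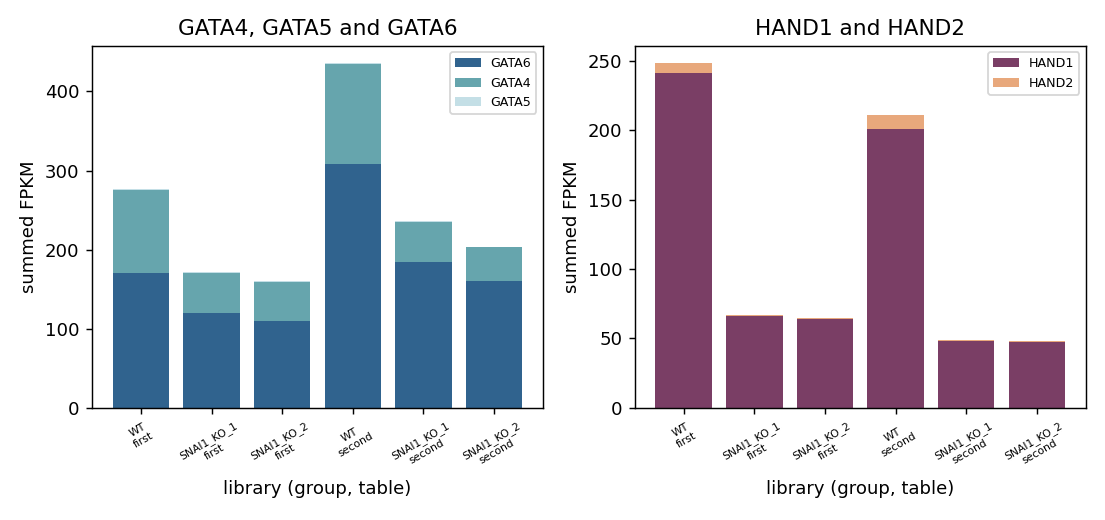
Summed FPKM of GATA4, GATA5 and GATA6 (left) and of HAND1 and HAND2 (right), stacked, 1 bar per library and axes from 0. The GATA sums fall from 276.1 and 435.8 in WT to between 160.1 and 236.4, and the HAND sums from 248.3 and 211 to between 47.9 and 66.9, with GATA5 too low to be seen.

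ZFPM2, a cofactor that binds GATA4, was low in WT, lower in the knockouts, and was not tested. It had 1.36, 0.0431 and 0.0788 FPKM in the first table, then 1.90, 0.305 and 0.242 in the second. The knockout libraries held 3.18% to 16% of WT with no overlap.

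MEF2C, a partner of GATA and bHLH factors in muscle and heart, was the other way round. It had 0.320, 0.341 and 0.424 FPKM in the first table, then 0.173, 0.369 and 0.360 in the second, so that no library exceeded 0.424. Its paralogue MEF2D was called lower (log2 difference -0.64 ± 0.11 SE, adjusted p = 0.0102 by limma), and MEF2C made up at most 2.59% of the summed FPKM of the 4 MEF2 genes.

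The 3 genes below the filter entered only the fits with weaker filters, of which 3 versions were run. The planned one used all symbols and called 2 of the 10 members lower (0.823% of all genes); the 2 others were added after its p-values had been seen, and called 7 of 10 both on symbols above 0 in at least 1 library (3.08%) and on symbols above 0 in all 6 libraries (8.69%). In that order the adjusted p by limma was 0.114, 0.0475 and 0.017 for ISL1 (log2 difference -0.79), 0.0512, 0.0206 and 0.00665 for ZFPM2 (-1.17) and 0.404, 0.332 and 0.2 for MEF2C (0.14). ISL1 and ZFPM2 therefore passed in the added versions and not in the planned one, and MEF2C passed in none of the 3. Counting levels alone, both WT libraries lay above all 4 knockout libraries for 5 of the 7 tested genes (HAND1, HAND2, FOXF1, NKX2-5 and GATA4), against 17.1% of tested genes, and for ISL1 and ZFPM2.

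The knockout groups could not be separated by these factors. Between SNAI1_KO_2 and SNAI1_KO_1, 0 of 7 members and 0% of all tested genes were called by limma, with 521 genes and 0 members at an unadjusted p under 0.05. The 95% interval of the log2 difference was -0.21 to 0.13 for HAND1, -0.40 to 0.48 for HAND2, -0.24 to 0.46 for FOXF1 and -0.43 to 0.17 for GATA4. It was widest for NKX2-5, at -0.69 to 0.81, and lay between -0.38 and 0.04 for GATA6. These intervals leave room for differences of that size.

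Several of these genes have a transcript on the opposite strand nearby, found after the members' values were seen: GENCODE 29 holds 20 opposite-strand genes that overlap a member or start within 5000 bases of its start, 14 of them in both tables. HAND2-AS1, which overlaps HAND2, had 0.935, 0.0615 and 0.0833 FPKM in the first table, then 1.21, 0.0183 and 0.0642 in the second. FENDRR, a long noncoding RNA that starts 1428 bases from FOXF1, had 4.59, 1.17 and 1.06 FPKM and then 2.79, 1.14 and 0.492 (log2 difference -1.25 ± 0.17 SE, adjusted p = 0.0054 by limma). GATA6-AS1 starts 435 bases from GATA6 and overlaps it.

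It had 113.5, 43.8 and 43.7 FPKM in the first table, then 79.9, 47.0 and 31.4 in the second (log2 difference -1.20 ± 0.14 SE, adjusted p = 0.00301 by limma). All 3 were lower in each knockout library than in WT of its table, as were 35.1% of all tested genes. Other neighbours, below 1 FPKM in every library, went otherwise. AC010478.1, which starts 59 bases from ISL1, held 4.34% and 19.4% of WT in SNAI1_KO_1 and 121% and 149% in SNAI1_KO_2. AL499627.2 beside GATA5 and AC091588.1 beside GATA6 were at 0 in WT. MEF2C-AS1 was lower in the first table and higher in the second. Of the 14, 4 passed the filter on low values and 2 of these were called lower, against 15.4% of all tested genes. The other 2 were AC091588.3 beside GATA6 (-0.46 ± 0.14 SE, adjusted p = 0.0626 by limma) and LRP12 beside ZFPM2 (-0.18 ± 0.17 SE, adjusted p = 0.458). FENDRR, 1 of the 2 called, lay at 0.492 to 1.17 FPKM in the knockouts, so it passed the filter mainly through WT. Whether reads were counted by strand is not given in the sources used here, so reads of overlapping partners may not be told apart.

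**Figure D4:**
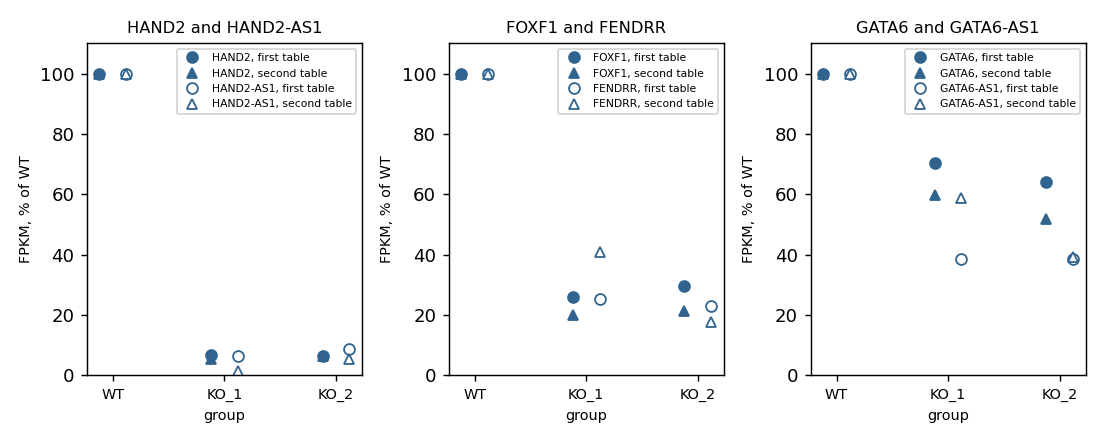
FPKM as a percentage of WT in the same table, from 0, for HAND2, FOXF1 and GATA6 (filled) and HAND2-AS1, FENDRR and GATA6-AS1 (open), 1 point per library. HAND2-AS1 lies at 1.51% to 8.91% of WT, FENDRR at 17.6% to 40.9% and GATA6-AS1 at 38.5% to 58.8%.

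By the distance between within-table log2 differences over the 4 knockout libraries, the genes most like HAND1 included CDH22, a cadherin (distance 0.216), SLPI, a secreted protease inhibitor (0.358), FOXF1 (0.365) and RASSF10 (0.372). FOXF1 was thus the nearest other member, while HAND2 ranked 100 and GATA6 ranked 534 among the tested genes. The WT levels of these genes were far below HAND1, with CDH22 at 4.26 and 6.11 FPKM. For CDH22, SLPI and RASSF10 the likeness holds on the log2(FPKM + 1) scale and not for FPKM ratios. The knockout libraries held 7.82% to 16.1% of WT for CDH22, 9.64% to 17.2% for SLPI and 13.3% to 22.6% for RASSF10, against 23.5% to 27.5% for HAND1.

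Genes that work beside these factors were described from lists, to be read against 15.4% of all tested genes called lower and 15.8% called higher. Without the table block 1065 genes were called, against 4348 with it, so many calls in the lists rest on the block. Among 11 tested cardiac progenitor factors, 7 were called lower and 3 higher, with a median log2 difference of -0.43. TBX20, a T-box factor of the heart, fell from 3.28 and 3.64 FPKM in WT to between 0.244 and 0.447 (-1.70 ± 0.15 SE, adjusted p = 0.00133 by limma), MESP2 by a log2 difference of -1.52 and MYOCD, a coactivator of SRF, by -0.91. TBX20 passed the filter on low values only through WT, so it could be called only lower. FOXC1 (0.57), SRF (0.40) and FOXH1 (0.23) were called higher. These 3 did not pass without the table block (adjusted p = 0.709, 0.268 and 0.494 by limma). TBX20, MESP2 and MYOCD did (0.00712, 0.0142 and 0.0206). With either knockout group alone FOXH1 did not pass (0.0528 for SNAI1_KO_1 and 0.112 for SNAI1_KO_2). TBX5, a defining factor of the first heart field, was at most 0.0872 FPKM in all 6 libraries.

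Among 5 tested lateral plate and limb bud factors, 3 were called lower and 1 higher. HLX, a homeobox factor of visceral mesoderm, fell from 24.0 and 31.1 FPKM to between 1.80 and 3.72 (-3.05 ± 0.12 SE, adjusted p = 0.000194 by limma), and PITX1 (-1.09) and PRRX2 (-0.89) fell too, while MSX2 rose (0.49). Of 5 tested paralogues, GATA3 (-0.87) and MEF2D fell and 0 rose.

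Among 8 tested signals, 4 were called lower and 1 higher. BMP4, which induces lateral plate genes, fell from 180.5 and 164.5 FPKM to between 29.8 and 38.2 (-2.25 ± 0.087 SE, adjusted p = 0.000194 by limma). The BMP antagonist NOG (-2.46) and FGF8 (-0.69) fell too, while BMP7 rose (1.29). All groups had BMP4 in the medium, and whether BMP signalling differed was not tested. Of 9 tested bHLH partners and ID inhibitors, 4 were called higher and 2 lower. ID4 (1.82), ID1 (1.01) and ID3 (0.95), which bind E proteins and keep them from DNA, rose, and TWIST1 (-0.86) and TCF4 (-0.47) fell. TCF3, an E protein that pairs with HAND factors, had a log2 difference of -0.04 ± 0.038 SE (adjusted p = 0.455 by limma).

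Most tested heart muscle genes rose. Of 12 tested, 7 were called higher and 1 lower, with a median log2 difference of 0.80. The 7 include RYR2, which passed the filter on low values only through the knockouts and could be called only higher. NPPB, a natriuretic peptide, rose from 18.2 and 12.7 FPKM to between 281.5 and 317.1 (4.23 ± 0.095 SE, adjusted p = 0.000139 by limma), ACTC1, cardiac actin, by 2.75 and TNNT2, cardiac troponin T, by 1.49 on the log2 scale. MYL4, an atrial myosin light chain, fell (-1.03). NPPA, a natriuretic peptide like NPPB, was lower in each knockout library and was not called (-0.39 ± 0.13 SE, adjusted p = 0.0671 by limma). The other 9 listed genes lay below the filter on low values. Among them MYL2, a ventricular myosin light chain, was listed at 0 in every library. The myosin heavy chains MYH6 and MYH7 were at most 0.0306 and 0.00646 FPKM, and PLN and SLN were at 0 in each knockout library.

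Markers of other cell types moved beside the factors, and their part in the results was not tested. Of 4 tested amnion markers 3 were called higher, IGFBP3 (3.84), TFAP2A (1.82) and GABRP (1.16), and their list's summed FPKM was 12.1 and 19.4 in WT and 50.0 to 62.1 in the knockouts. Of 6 pluripotent cell markers 3 were called higher, NANOG (1.14), POU5F1 (0.57) and DPPA4 (0.41), and the list summed to 631 and 740 FPKM in WT and 858 to 1167 in the knockouts. POU5F1 made up most of these sums, at 485 and 630 FPKM in WT and 677 to 1014 in the knockouts. Of 7 tested endoderm markers SOX17 (0.63) and FOXA1 (0.58) rose and CER1 (-1.0) and FOXA2 (-0.54) fell. They did not pass without the table block (adjusted p = 0.728, 0.496, 0.107 and 0.658 by limma, in that order). FOXA1 passed the filter on low values only through the knockouts, so it could be called only higher. The list summed to 3341 and 2832 FPKM in WT and 1279 to 1934 in the knockouts, with TTR at 0. CER1 made up most of that sum. Without it the list had 78.7 FPKM in WT against 152.3 and 137.4 in the knockouts of the first table. In the second table it had 282.3 against 367.3 and 302.4. SOX17 made up most of this remainder, at 63.9 FPKM in WT against 132.9 and 119.9 in the first table, and 251.0 against 337.7 and 279.9 in the second. The sum without CER1 therefore does not speak for the other markers of the list.

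Of 3 tested paraxial markers MSGN1 rose (1.52), with the list summing to between 16.7 and 24.8 FPKM in all libraries and MEOX2 at 0. MSGN1 passed the filter on low values only through the knockouts, so it could be called only higher. The 1 tested intermediate mesoderm marker, LHX1, fell (-1.55), with list sums of 41.7 and 67.2 FPKM in WT and 15.9 to 20.1 in the knockouts, as did the 1 tested hematoendothelial marker, KDR (-0.56), with list sums of 65.96 and 57.81 in WT and 38.5 to 42.0 in the knockouts. Of 2 tested neural markers, OTX2 and ZIC2, 0 were called. That list summed to between 142 and 198 FPKM in all libraries, nearly all of it from these 2 genes. PAX6 lay below the filter on low values, with 1.29 and 2.38 FPKM in WT and 0.0242 to 0.184 in the knockouts.

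**Figure D5:**
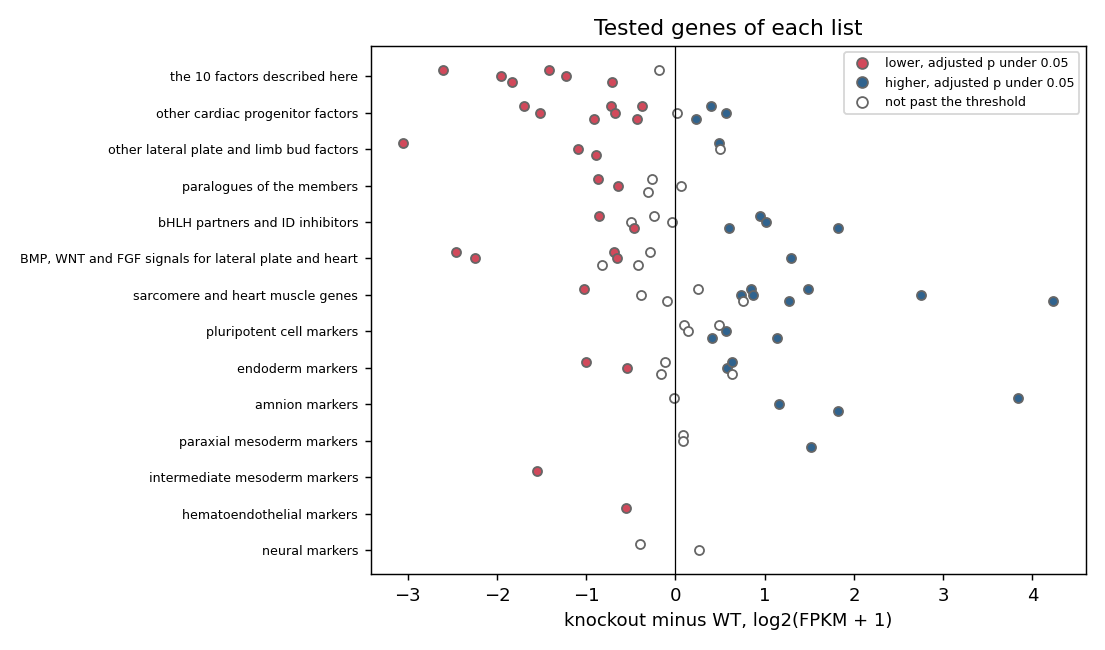
Log2 difference of knockout minus WT on the log2(FPKM + 1) scale for each tested gene, by list; filled points passed an adjusted p of 0.05 (red lower, blue higher) and open points did not. The factors lie to the left, with HAND2 at -2.61, and the heart muscle genes mostly to the right, with NPPB at 4.23.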

How the data were processed

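Total RNA was sequenced from H1 cells at day 2, in 6 libraries. The deposited values are FPKM, calculated by the authors and given in 2 tables that were normalised separately; for the first table the unit was taken from the study and the values. The submitters' processing notes name BWA, Bowtie, RSEM and hg19 with no role, and read depth is not given in the sources used here. FPKM holds no counts, so no counting interval was computed. Symbols found once in both tables were joined (37803). Those with a mean FPKM of at least 1 (13909) were fitted as log2(FPKM + 1) with limma 3.58.1 in R 4.3.3, with group means, the table as replicate block and a mean-variance trend. P-values were adjusted by Benjamini-Hochberg over all genes fitted, with a threshold of 0.05. A log2 difference is on this scale and understates changes of low genes. A gene that passes the filter only through WT, as HAND2 and TBX20 did, can be called only lower. One that passes only through the knockouts, as IGFBP3, GABRP, MSGN1, FOXA1 and RYR2 did, can be called only higher. The script was tested on simulated data. The columns carry no replicate number, so the block is the table and not the number in the titles; between-table changes of the 3 groups correlated across genes at r = 0.6156 to 0.6765. Family shares were compared by a two-sided exact permutation test within tables.

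The members, gene lists and tests were chosen with earlier results of these data known. All 10 members, SNAI1, up to 3 called genes per list and direction, and the 5 genes nearest to HAND1 by Euclidean distance over the 4 within-table log2 differences were to be named, of which 1 is not reported here; the opposite-strand neighbours and any other gene were added after values were seen. Alternatives were other pseudocounts, filters and scalings, no block, no trend, the knockouts as 1 group and leaving out each library. The fit without a filter was planned on all 37803 symbols. After its member p-values were seen, 2 narrower versions were added, on symbols above 0 in at least 1 library and in all 6 libraries, and all 3 are reported.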

Additional observations from a re-analysis of the deposited data

How the results depend on the processing

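Over the 291 alternatives of the 6 called members in the 3 comparisons with WT, 249 kept the call, 42 lost it and 0 changed direction, and GATA5 passed in 0 of 46. The filter on low values mattered most. The planned fit with no filter, on all 37803 symbols, called 2 of the 10 members (HAND1 and HAND2) and 732 genes in both knockout groups together. With SNAI1_KO_1 alone and with SNAI1_KO_2 alone it called 0 members and 0 of all genes. In that fit symbols listed at 0 in every library entered the variance estimate. The 2 versions added after those p-values had been seen called 7 of 10 members, on 30248 symbols above 0 in at least 1 library (2139 genes called) and on 19807 symbols above 0 in all 6 libraries (3707 genes called). NKX2-5 did not pass in any of the 3 versions (adjusted p = 0.209, 0.1 and 0.0539), and FOXF1, GATA4 and GATA6 did not pass in the planned version (adjusted p = 0.055, 0.0829 and 0.0926). Without the replicate block, 4 of 7 members and 1065 genes were called, against 6 and 4348 with it; the block decided NKX2-5 (adjusted p = 0.101 without it) and GATA6 (0.301). Leaving out any 1 of the 6 libraries, with the lone library of a group assumed to vary like the other groups, left 1728 to 2840 genes and 5 or 6 members called in the joint comparison, the 5 without the SNAI1_KO_2 library of the second table. With SNAI1_KO_1 alone it left 962 to 2379 genes (of 3327) and 4 to 6 members, the 4 without either SNAI1_KO_1 library, where NKX2-5 and GATA6 were lost. With SNAI1_KO_2 alone it left 1135 to 2693 genes (of 3549) and 5 or 6 members. A log2 limit of 1, also added later, left 5 members and 998 genes. Between the knockout groups, leaving out 1 library turned the sign of differences that were not called. Over those fits the log2 difference ran from -0.08999 to 0.006933 for HAND1, from -0.09628 to 0.1763 for HAND2, from -0.01733 to 0.2425 for FOXF1, from -0.3115 to 0.4323 for NKX2-5 and from -0.3175 to 0.05584 for GATA4. The median log2 difference of all genes was -0.05 as reported, -0.07 after quantile normalization and -0.01 after median-ratio scaling. With FPKM and no depth given, the effect of depth was not tested.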
